A study of Homo sapiens with 9 samples.

Results

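The genes of fatty acid and cholesterol metabolism were followed here across 3 HaCaT keratinocyte lines. The list held 41 genes, taken by name for their roles in fatty acid activation, synthesis, elongation, desaturation and oxidation, in cholesterol synthesis and in its control. Of these, 36 had a probe set of their own among the 19775 genes of the array, with 82 probe sets in all. ELOVL1, FADS1 and CYP51A1 were only on probe sets annotated to several genes and were not used, and ACSL3 and FDFT1 were not analysed here.

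HaCaT keratinocytes are human skin cells that became immortal in culture without added genes. NLS-actin cells stably express GFP-tagged β-actin that carries a nuclear localization sequence. WT-actin cells stably express GFP-tagged wild type β-actin. The parental line carries neither plasmid. Both actin lines were made by transfection and G418 selection as stable populations positive for GFP, so each is 1 selected population, and line, plasmid and selection cannot be told apart. Total RNA of each line was hybridized to 3 Affymetrix U133 Plus 2.0 arrays, 9 arrays in all. The comparisons address which genes differ between NLS-actin and parental cells, between WT-actin and parental cells, and between the actin lines. The values are MAS5 signals, the linear brightness of a probe set after each array was scaled to the same trimmed mean, which was 500.0 to 500.1 on every array. Median signals were 29.7 to 43.3, correlations between arrays 0.925 to 0.956, and the number of arrays limits the precision. The keratins KRT5 and KRT14 read 6373 to 12753 and 7816 to 13830. Summed markers of melanocytes, adipocytes, hepatocytes and leukocytes stayed between 13.0 and 169.8 on every array. Those of fibroblasts summed to between 298 and 1155, nearly all of it from COL1A1 and COL3A1, while COL1A2 and PDGFRA read 21.6 or less, and the ranges of the lines overlapped. NLS-actin replicate 2, WT-actin replicate 1 and parental replicate 2 stood apart from their lines. Their deviations from the line means correlated with each other at 0.573 to 0.75 over 11979 brighter genes. The labels do not mark these arrays. They were singled out from these same data, so fits without them are not independent checks. These arrays had the highest 3' to 5' signal ratio of the ACTB control probe sets in their line (12.8, 14.9 and 7.96, against 3.82 to 7.98 on the other arrays). The GAPDH control did not follow this. Its ratio was highest of the line on WT-actin replicate 1 (3.07) but lowest of the line on NLS-actin replicate 2 (1.64) and parental replicate 2 (1.40). Both actin lines express a tagged β-actin, and whether the ACTB control probe sets also read its transcript was not tested. In bulk RNA, fewer cells of a type and less RNA per cell cannot be told apart. The labels do not say that the replicates came from separate cultures, so p values measure the spread between these arrays.

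Fatty acids enter metabolism once acyl-CoA synthetases (the ACSL genes) attach them to coenzyme A. They are built by ACACA and FASN, lengthened by the ELOVL elongases, made unsaturated by desaturases such as SCD and FADS2, and burned in mitochondria after the carnitine shuttle (CPT1A, CPT2) by the β-oxidation enzymes. Cholesterol is made from acetyl-CoA through mevalonate and squalene. When sterols run low, SCAP escorts the SREBP transcription factors (genes SREBF1 and SREBF2) from the endoplasmic reticulum, where INSIG1 otherwise holds them, and the factors switch on most genes of the list. Epidermis relies on these lipids, because cholesterol, very long chain fatty acids and ceramides form its water barrier.

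Few of these genes passed the test between the lines, and a gene that did not pass may still differ. At an adjusted p under 0.05 (limma over all genes, Benjamini-Hochberg), 1 of 36 members differed between NLS-actin and parental cells, against 0.131% of all 19775 genes. It was ACAT1, which was lower in NLS-actin cells, as were 0.111% of all genes. Between WT-actin and parental cells it was 1 of 36, against 0.167%, and the gene was ELOVL7, higher in WT-actin cells, as were 0.0405% of all genes. Between NLS-actin and WT-actin cells 3 of 36 differed, ACSL5, ELOVL7 and ACAT1, against 0.728% of all genes, and all were lower in NLS-actin cells, as were 0.339% of all genes. Blocking on the replicate number, 3 of 36 passed for NLS-actin against parental (ACSL5, ELOVL7 and ACAT1), against 1.91% of all genes, and all were lower in NLS-actin cells (1.19% of all genes). That block was chosen from residuals of these same arrays, and the labels do not say what the number marks. With so few calls these shares say little about the list as a whole. By the thresholds of the study's methods, an unadjusted p under 0.05 and a change above 2-fold, 1, 3 and 2 members passed, against 3.17%, 3.03% and 4.85% of all genes. They were ACSL5 in each comparison, ELOVL7 in both that involve WT-actin cells, and ELOVL4 for WT-actin against parental. The median log2 fold change of the 36 members was -0.01, 0.04 and 0.01, beside -0.01, -0.06 and 0.03 over all genes. Of the 36, 18, 23 and 19 were above 0, against 49.4%, 43.7% and 53.4% of all genes. The 95% interval of the change stayed within 2-fold in either direction for 27, 28 and 25 of the 36.

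**Figure D1:**
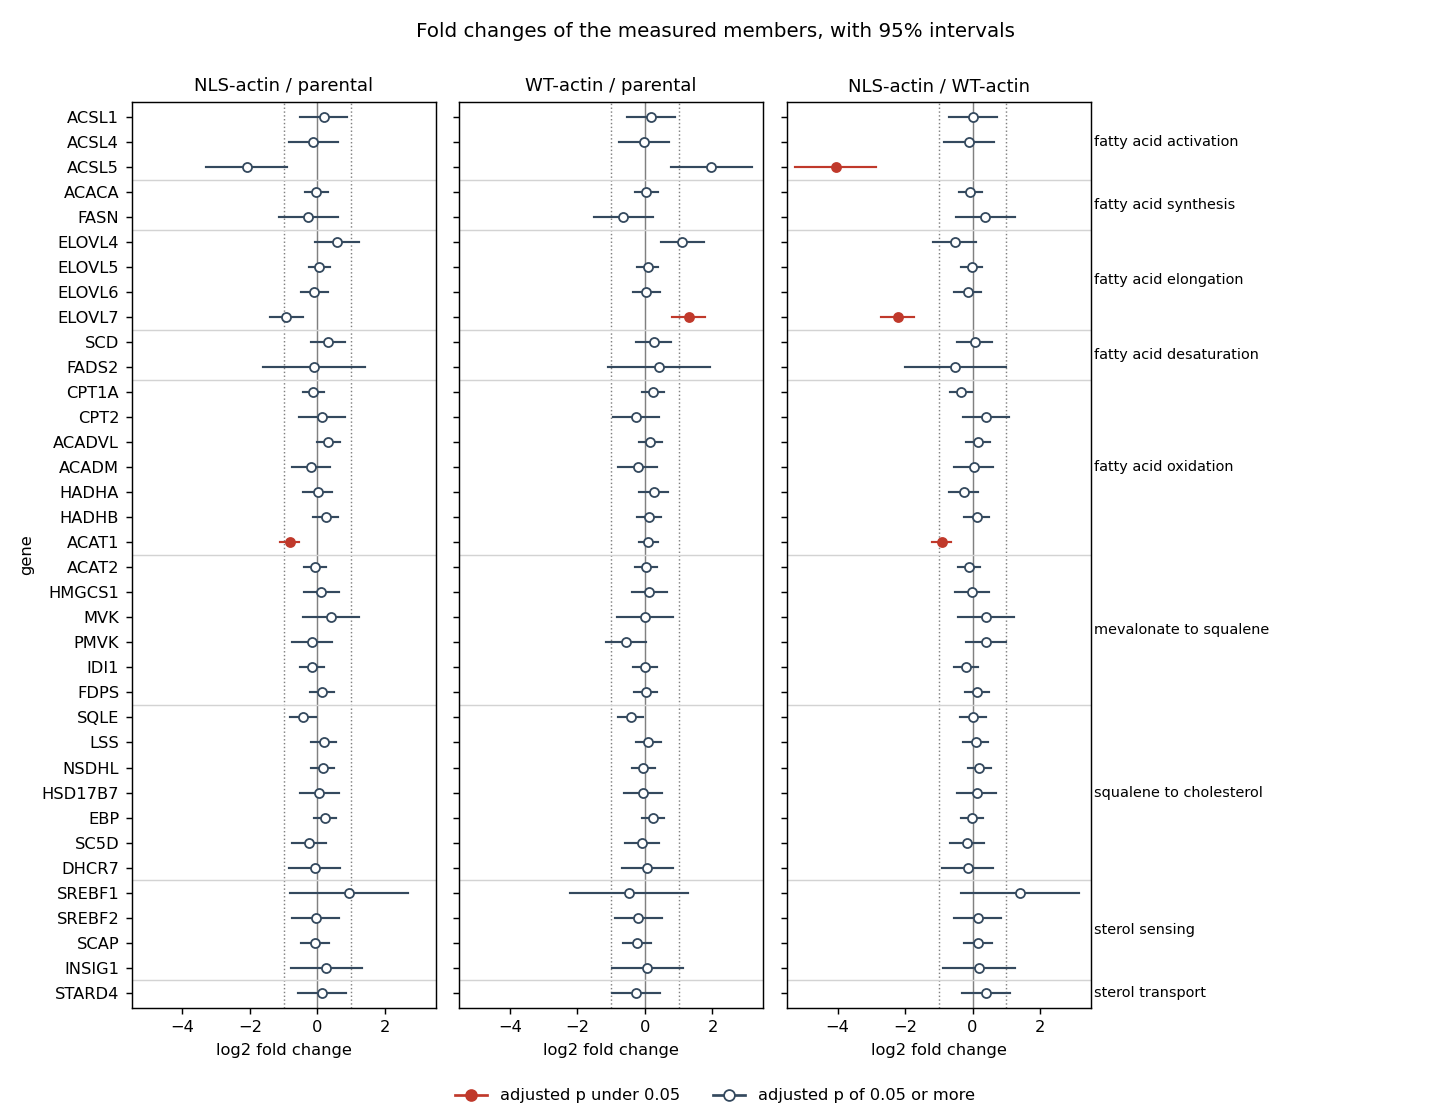
Log2 fold change (horizontal axis) of each of the 36 measured members (rows, grouped by role) for NLS-actin over parental, WT-actin over parental and NLS-actin over WT-actin. Bars are 95% intervals, dotted lines mark 2-fold, and filled red points have an adjusted p under 0.05. Most points lie near 0, and ACSL5 and ELOVL7 lie furthest out, on the left for NLS-actin against WT-actin.

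ACSL5, an acyl-CoA synthetase of mitochondria and the endoplasmic reticulum that activates long chain fatty acids, had the largest fold changes of the 36 members in all 3 comparisons. Its main probe set, the one with the higher mean log2 signal, read 21.5, 24.6 and 19.8 in NLS-actin cells, 754, 301 and 214 in WT-actin cells and 109, 175 and 42.7 in parental cells. The groups did not overlap in any of the 3 comparisons, with NLS-actin cells lowest and WT-actin cells highest. The NLS-actin signals lay below 33.5, the median over all probe sets (the dim threshold), so that the low end is close to background and the size of the fall is uncertain. The log2 fold change of NLS-actin against WT-actin cells was -4.06 (SE 0.55, limma adjusted p = 0.00423), and this held without the arrays that stand apart (-3.62, adjusted p = 0.00742). Against parental cells the log2 fold change was -2.10 in NLS-actin cells (SE 0.55, adjusted p = 0.285) and 1.97 in WT-actin cells (SE 0.55, adjusted p = 0.374). With the replicate number as a block, the NLS-actin value reached an adjusted p of 0.0355. Its other probe set read 28.7, 51.8 and 22.7 in NLS-actin cells, 141, 85.1 and 75.1 in WT-actin cells and 66.3, 103 and 49.5 in parental cells. Its changes were smaller, at -1.58 for NLS-actin against WT-actin, -1.11 for NLS-actin against parental and 0.47 for WT-actin against parental, so that the order of the lines held in the means, but NLS-actin replicate 2 read above the lowest parental array, and WT-actin and parental arrays overlapped. Both probe sets are of a kind that can bind related transcripts. The other measured synthetases moved little. ACSL1, an acyl-CoA synthetase of broad substrate range, read 1069, 2443 and 1378 in NLS-actin cells, 1684, 1966 and 1057 in WT-actin cells and 1433, 1756 and 967 in parental cells, with changes of 0.19, 0.17 and 0.01. ACSL4, which prefers arachidonic acid, had changes of -0.12, -0.02 and -0.10.

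ELOVL7, an elongase of saturated long chain fatty acids, separated all 3 lines. Its only probe set read 180.0, 139.7 and 214 in NLS-actin cells, 701, 846 and 920.4 in WT-actin cells and 364, 300.2 and 333 in parental cells. No array of one line overlapped another line. The log2 fold change of NLS-actin against WT-actin cells was -2.22 (SE 0.22, limma adjusted p = 0.000666). In WT-actin cells it was 2.47-fold above parental cells (log2 1.30, SE 0.22, adjusted p = 0.0499). That call is marginal: it was lost when any 1 array other than NLS-actin replicate 2 was left out (adjusted p of 0.0185 to 0.28 over the 9 omissions). In NLS-actin cells the log2 fold change against parental was -0.92 (SE 0.22, adjusted p = 0.219), and 0.0422 with the replicate block. ELOVL4, the elongase that makes the very long chain fatty acids of epidermal ceramides, read 191, 356 and 252 in NLS-actin cells, 263, 453 and 431 in WT-actin cells and 188, 155 and 177 in parental cells. All arrays of both actin lines lay above all parental arrays, by 0.58 in NLS-actin cells (adjusted p = 0.806) and 1.10 in WT-actin cells (adjusted p = 0.323) on the log2 scale, and neither passed the test. Without the 3 arrays that stand apart they were 0.27 (adjusted p = 0.824) and 1.28 (adjusted p = 0.104). ELOVL5 and ELOVL6, elongases of polyunsaturated and of shorter saturated fatty acids, changed by -0.14 to 0.08 in the 3 comparisons. ELOVL6 read 5340.5, 5739.6 and 5675 in NLS-actin cells, 8155, 6222 and 4569 in WT-actin cells and 5501, 6762 and 5691 in parental cells.

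ACAT1, the mitochondrial thiolase that handles acetoacetyl-CoA in ketone body use and isoleucine breakdown, was lower in NLS-actin cells than in either other line. Its main probe set read 1654, 1488 and 1555 in NLS-actin cells, 2995, 2996 and 2883 in WT-actin cells and 2713, 2993 and 2626 in parental cells. The 3 NLS-actin arrays lay far below the other 6, and WT-actin and parental arrays overlapped. The fold change was 0.564 against parental (log2 -0.83, 95% interval -1.11 to -0.55, limma adjusted p = 0.033) and 0.529 against WT-actin (log2 -0.92, 95% interval -1.20 to -0.64, adjusted p = 0.0052). Between WT-actin and parental cells it was 1.07 (log2 0.09, adjusted p = 0.922). The call against parental was lost when any 1 array other than WT-actin replicate 1 or 3 was left out (adjusted p of 0.0414 to 0.192), and without the 3 arrays that stand apart (adjusted p = 0.152), while with the replicate block it was 0.0032. The call against WT-actin passed under each of the 9 omissions. Of the other ACAT1 probe sets, both dim, the first read 19.7, 23.9 and 16.3 in NLS-actin cells, 34.7, 48.4 and 45.9 in WT-actin cells and 32.3, 43.2 and 38.5 in parental cells, again with all NLS-actin arrays lowest (-0.93 against parental and -1.11 against WT-actin). The second, at 21.1, 31.2 and 21.1 in NLS-actin cells, 21.3, 52.4 and 10.8 in WT-actin cells and 23.9, 19.7 and 15.4 in parental cells, overlapped between lines. The mean of the 3 probe sets missed the threshold in both comparisons (adjusted p = 0.817 and 0.483).

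**Figure D2:**
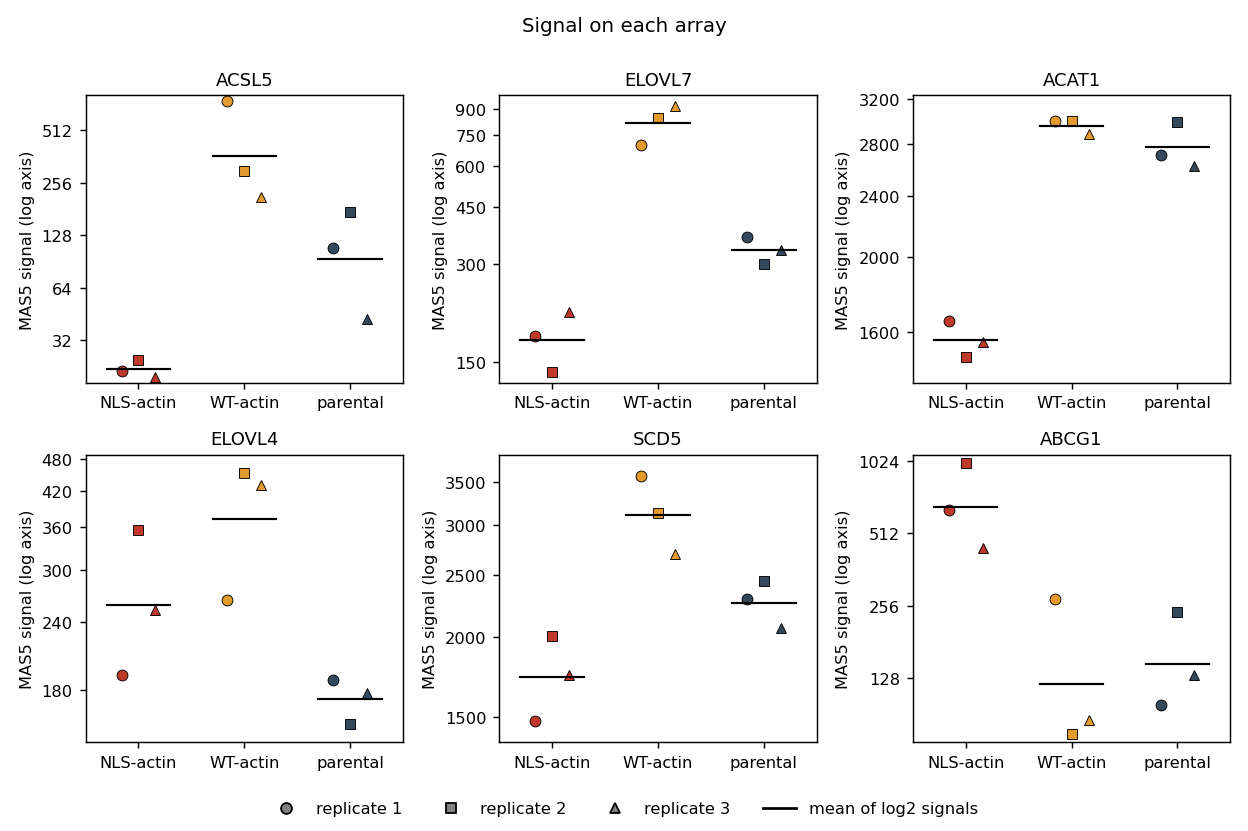
MAS5 signal (log axis, own range in each panel) of ACSL5, ELOVL7, ACAT1, ELOVL4, SCD5 and ABCG1 on each of the 9 arrays, with NLS-actin, WT-actin and parental cells from left to right. Marker shape gives the replicate and lines the mean of the log2 signals. ACSL5, ELOVL7 and ACAT1 are lowest in NLS-actin cells, and the 3 NLS-actin arrays of ABCG1 lie above the other 6.

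The probe sets of a gene were set side by side to see whether these changes rest on 1 probe set. For NLS-actin against WT-actin cells, both ACSL5 probe sets and 2 of 3 ACAT1 probe sets were below 0. ELOVL7 has only 1 probe set, so no second reading was made.

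**Figure D3:**
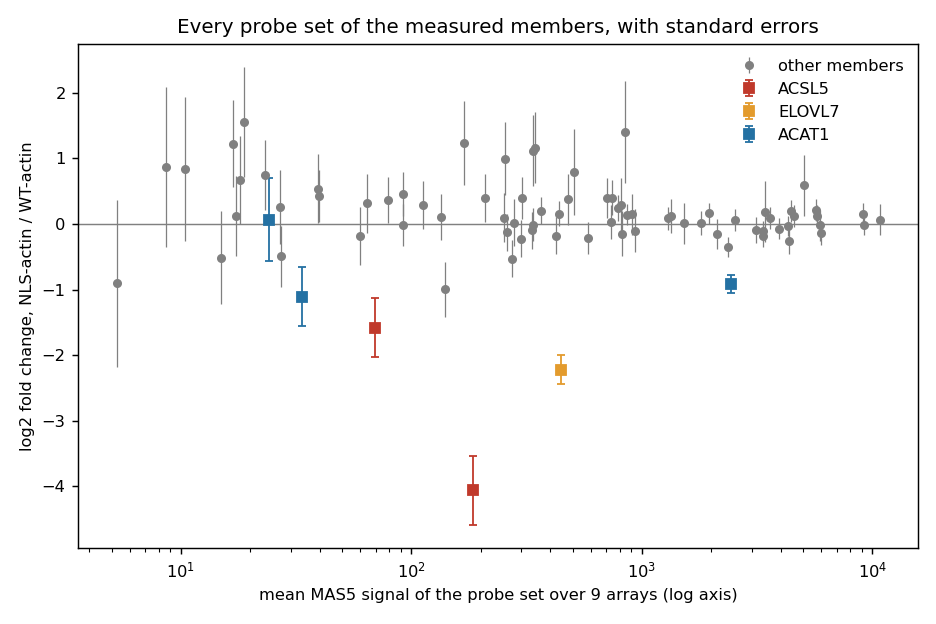
Log2 fold change of NLS-actin over WT-actin cells (vertical axis, with standard error) against the mean MAS5 signal over 9 arrays (horizontal axis, log) for the 82 probe sets of the members. ACSL5 (-4.06 and -1.58), ELOVL7 (-2.22) and ACAT1 are coloured. The brightest ACAT1 probe set is at -0.92 and the dim ones are at -1.11 and 0.07. Errors are widest among dim probe sets.

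The bases upstream of the annotated start are shown for these genes, because 3 members differed by line and a reader may want to compare their promoters with those of the sterol genes further on. They are the 250 bases before a RefSeq start (GRCh38.p14), with matches to any of 4 motifs on either strand in capitals: the CCAAT box (CCAAT), the GC box (GGGCGG), the E-box (CACGTG) and the sterol regulatory element in the form TCACNCCAC. Overlapping matches run together. Of the genes with several starts the window furthest upstream is printed. The ACSL5 window lies at chr10:112375018-112375267 on the plus strand, ELOVL7 at chr5:60844270-60844519 on the minus strand and ACAT1 at chr11:108121317-108121566 on the plus strand.
ACSL5: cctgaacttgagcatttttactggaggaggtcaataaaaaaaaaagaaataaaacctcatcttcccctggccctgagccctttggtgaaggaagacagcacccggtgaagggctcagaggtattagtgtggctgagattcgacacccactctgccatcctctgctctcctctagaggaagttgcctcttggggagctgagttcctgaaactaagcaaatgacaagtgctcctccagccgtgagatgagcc
ELOVL7: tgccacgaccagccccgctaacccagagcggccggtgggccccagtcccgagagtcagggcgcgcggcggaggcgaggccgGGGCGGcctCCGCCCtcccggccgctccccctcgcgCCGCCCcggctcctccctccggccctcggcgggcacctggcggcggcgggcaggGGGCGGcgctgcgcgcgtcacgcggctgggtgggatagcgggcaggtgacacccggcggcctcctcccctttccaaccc
ACAT1: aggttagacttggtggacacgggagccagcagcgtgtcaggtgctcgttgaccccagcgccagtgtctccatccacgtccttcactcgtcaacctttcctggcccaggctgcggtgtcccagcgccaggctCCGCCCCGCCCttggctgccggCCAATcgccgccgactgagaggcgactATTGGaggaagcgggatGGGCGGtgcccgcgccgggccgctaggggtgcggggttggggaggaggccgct
The ACSL5 window held none of the 4 motifs, and neither did the window of its other start. ELOVL7 held 4 GC boxes. ACAT1 held 3 GC boxes and 2 CCAAT boxes, and the window of its other start held none. A match is a description of letters and not a bound site.

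The remaining fatty acid genes showed no call. In synthesis, ACACA, the enzyme that commits acetyl-CoA to fatty acids, read 3587, 3819 and 4031 in NLS-actin cells, 4612, 4466 and 3113 in WT-actin cells and 3857, 4040.2 and 3798 in parental cells, with changes of -0.03, 0.04 and -0.07 for NLS-actin against parental, WT-actin against parental and NLS-actin against WT-actin. FASN, the fatty acid synthase, read 279, 687 and 496 in NLS-actin cells, 522, 405 and 206 in WT-actin cells and 670.5, 686 and 364 in parental cells. Its spread within lines covered its differences of -0.27, -0.65 and 0.38 (lowest adjusted p = 0.798), and the lowest array was WT-actin replicate 3. SCD, the main stearoyl-CoA desaturase, read 10397, 11908 and 12354 in NLS-actin cells, 15341, 12469 and 6981 in WT-actin cells and 7925, 10493 and 9466 in parental cells, and both actin lines overlapped the parental line. For WT-actin against parental this probe set was at 0.25, while 3 of the 4 SCD probe sets were below 0 (lowest -1.07). FADS2, a desaturase of polyunsaturated fatty acids, was the only member with a mean below the median of all probe sets (4.53 to 20.2), so nothing can be said of its direction.

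Of the 7 oxidation genes only ACAT1 passed. CPT1A, the gatekeeper of the carnitine shuttle, read 2162, 1987 and 2169.7 in NLS-actin cells, 2997, 2341 and 2758 in WT-actin cells and 2478, 2022 and 2398 in parental cells. NLS-actin and WT-actin arrays did not overlap, but the log2 fold change of -0.35 had an adjusted p of 0.465. ACADVL, the first enzyme of very long chain β-oxidation, read 2051, 2446 and 2035 in NLS-actin cells, 1855, 1758 and 2235 in WT-actin cells and 1709.9, 1966 and 1559 in parental cells, and all NLS-actin arrays lay above the parental ones (0.32, adjusted p = 0.804). HADHB, the thiolase subunit of the trifunctional protein, read 4533, 5051 and 5206 in NLS-actin cells, 5728, 4593 and 3549 in WT-actin cells and 4237, 4263 and 3999 in parental cells, again without overlap between NLS-actin and parental (0.24, adjusted p = 0.852). HADHA, ACADM and CPT2 changed by -0.26 to 0.39 in the 3 comparisons. Over the 18 measured fatty acid genes the median log2 fold change was -0.06, 0.14 and -0.09, with 10 of 18 below 0, 4 of 18 below 0 and 11 of 18 below 0.

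The cholesterol synthesis genes differed little between the lines by their main probe sets. Of the 13 measured, 0 passed the adjusted threshold in any comparison (lowest limma adjusted p = 0.713 for NLS-actin against parental, 0.687 for WT-actin against parental and 0.74 for NLS-actin against WT-actin). At an unadjusted p under 0.05, 1, 1 and 0 of the 13 passed (7.69%, 7.69% and 0), against 6.44%, 6.69% and 9.47% of all genes, and the gene was SQLE in both comparisons with the parental line. Their median log2 fold changes were 0.06, 0.01 and 0.01. For 12 of 13 the 95% interval stayed within 2-fold in each comparison, the exceptions being MVK in the comparisons of NLS-actin cells and PMVK for WT-actin against parental. These intervals bound the mean of 3 arrays against 3 and do not show that the lines are equal.

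Between acetyl-CoA and squalene, HMGCS1, which joins acetoacetyl-CoA and acetyl-CoA, read 5899, 4730.4 and 7505 in NLS-actin cells, 6754, 7971 and 4023 in WT-actin cells and 5334, 4967 and 6276 in parental cells, with changes of 0.11, 0.13 and -0.02. The other HMGCS1 probe set, dimmer at a mean signal of 279, changed by -1.05, -1.07 and 0.02, so the probe sets disagree for both comparisons with parental cells. PMVK, the phosphomevalonate kinase, read 708, 995 and 612 in NLS-actin cells, 488, 451 and 845 in WT-actin cells and 696, 1055 and 814 in parental cells (-0.56 in WT-actin against parental, adjusted p = 0.758). The farnesyl diphosphate synthase FDPS had changes of 0.14, 0.02 and 0.13, the isomerase IDI1 of -0.17, 0.01 and -0.18, the mevalonate kinase MVK of 0.40, 0.004 and 0.39, and the cytosolic thiolase ACAT2 of -0.06, 0.04 and -0.10.

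Between squalene and cholesterol, SQLE, the epoxidase that adds oxygen to squalene, had the smallest p of the 13 in both comparisons with the parental line. It read 1608, 1413 and 1857 in NLS-actin cells, 1709.9, 1871 and 1286 in WT-actin cells and 1993, 2128 and 2367 in parental cells. Every array of both actin lines lay below every parental array. The log2 fold change against parental was -0.42 in NLS-actin cells (SE 0.18, adjusted p = 0.713) and -0.43 in WT-actin cells (SE 0.18, adjusted p = 0.687), with the same parental arrays in both comparisons. Another SQLE probe set read 63.6, 77.0 and 68.3 in NLS-actin cells, 53.6, 93.8 and 68.6 in WT-actin cells and 158, 118 and 127 in parental cells, with changes of -0.94 and -0.93 that likewise missed the threshold. The remaining SQLE probe sets overlapped between the lines. EBP, the sterol isomerase, read 9608, 8948 and 10156 in NLS-actin cells, 10458, 9642 and 8819 in WT-actin cells and 6780.4, 8192 and 9899.8 in parental cells. LSS, NSDHL, HSD17B7, SC5D and DHCR7, which close the rings and finish the sterol, changed by -0.25 to 0.20 in the 3 comparisons.

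Before the adjustment, and by overlap of arrays, the members can be set beside all genes. At an unadjusted p under 0.05, 4 of 36 members passed in each comparison (11.1%), against 6.44%, 6.69% and 9.47% of all genes. For NLS-actin against parental 10 of 36 (27.8%) had no overlap of the 3 against 3 arrays, against 13.9% of all genes. ACSL5, ELOVL7, ACAT1, SQLE, IDI1 and SC5D were lower in NLS-actin cells and ELOVL4, ACADVL, HADHB and LSS were higher. For WT-actin against parental it was 6 of 36 (16.7%), against 12.3%, and for NLS-actin against WT-actin 4 of 36 (11.1%), against 13.9%. The background includes dim genes, of which the list holds few: 34 of 36 members read above 100 on all 9 arrays.

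Of the 4 sterol sensing genes, 0 passed the adjusted threshold in any comparison, and SREBF1 and INSIG1 varied widely within lines. SREBF1 read 629, 2109 and 898 in NLS-actin cells, 1429.8, 422 and 107 in WT-actin cells and 562, 1216 and 249 in parental cells, a 19.7-fold range over 9 arrays. The within-line SD was 1.37 on the log2 scale, beside a median of 0.27 over genes above the dim threshold of 33.5. The highest arrays were NLS-actin replicate 2, WT-actin replicate 1 and parental replicate 2, which are those with the highest ACTB 3' to 5' ratio of their line. No difference between lines passed (0.94, -0.47 and 1.40, lowest adjusted p = 0.665). With that ratio as a term of the fit the NLS-actin against parental difference was -0.01, and WT-actin against parental was -0.86 and NLS-actin against WT-actin 0.85. The ratio was higher on each NLS-actin array than on the parental array of its number, and it may include the tagged actin. That fit therefore cannot set RNA quality apart from line. Without the 3 arrays that stand apart the differences were 1.01, -0.82 and 1.82 (lowest adjusted p = 0.215). Without WT-actin replicate 3, WT-actin against parental turned to 0.49 and NLS-actin against WT-actin was 0.45. Each NLS-actin array read above the parental array of its number, and with the replicate block that difference of 0.94 had an adjusted p of 0.0617. The second SREBF1 probe set read 104, 559 and 167 in NLS-actin cells, 157, 72.1 and 66.6 in WT-actin cells and 69.7, 264 and 62.0 in parental cells. Each line was highest on the same array as before, though NLS-actin replicate 3 read above WT-actin replicate 1. SREBF2 read 676, 1441 and 726 in NLS-actin cells, 941, 898 and 614 in WT-actin cells and 816, 1369 and 697 in parental cells, with changes of -0.05, -0.19 and 0.15. It too was highest on NLS-actin replicate 2, WT-actin replicate 1 and parental replicate 2. SCAP, the escort, had a within-line SD of 0.12, and its WT-actin arrays (382 to 408) lay below its parental arrays (409.6 to 522) without overlap (log2 difference -0.23, adjusted p = 0.857).

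INSIG1, the retention factor whose transcript is itself an SREBP target, read 2938, 4145 and 3467 in NLS-actin cells, 4870.1, 5474 and 1067 in WT-actin cells and 3279.5, 3645 and 2041 in parental cells. WT-actin replicate 3 stood far below the rest, 5.13-fold under the highest of its line. The other INSIG1 probe sets were also lowest on that array, at 73.2 and 77.7, where the lowest of the other 8 arrays read 226 or more for each. Of the 3 INSIG1 probe sets, 2 were below 0 for WT-actin against parental (lowest -0.86), and the highest for NLS-actin against WT-actin was 1.16. For the main probe set the differences between lines were 0.26, 0.07 and 0.19 (lowest adjusted p = 0.951). Without WT-actin replicate 3, WT-actin against parental was 0.83 (adjusted p = 0.321) and NLS-actin against WT-actin turned to -0.57 (adjusted p = 0.467). STARD4, a cytosolic sterol carrier that is also an SREBP target, read 267, 412 and 322 in NLS-actin cells, 286, 375 and 144 in WT-actin cells and 325, 301 and 275 in parental cells, with WT-actin replicate 3 lowest again.

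**Figure D4:**
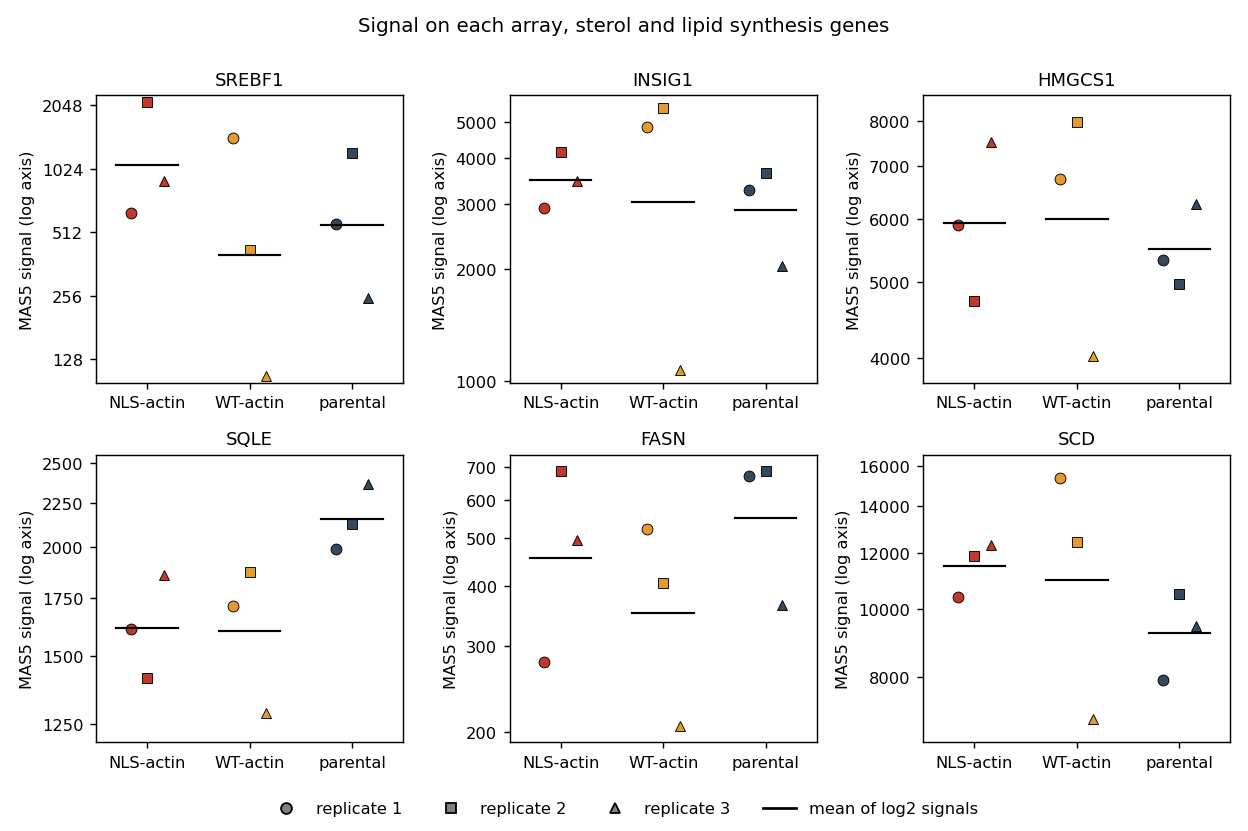
MAS5 signal (log axis, own range in each panel) of SREBF1, INSIG1, HMGCS1, SQLE, FASN and SCD on each of the 9 arrays, with NLS-actin, WT-actin and parental cells from left to right. Marker shape gives the replicate and lines the mean of the log2 signals. WT-actin replicate 3 is the lowest array in each of the 6 panels, and SREBF1 spans 107 to 2109.

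This low reading of WT-actin replicate 3 was shared by most of the cholesterol synthesis members. That array was the lowest of the 9 arrays for 10 of 13 cholesterol synthesis genes and 21 of 36 members, against 15.8% of the 11979 genes above the dim threshold. Within its line it was lowest for 12 of 13 cholesterol synthesis genes, against 39.9% of those genes. PMVK was the exception, where it read highest of the line. The 15 further genes of sterol synthesis and uptake, taken up below, shared the low reading less. For them that array was lowest of the 9 for 3 genes, highest of the 9 for 2 and lowest of its line for 8. Their median deviation from the line mean on it was -0.13. Set against the mean of the other WT-actin arrays, the median log2 difference was -0.55 over the 13 cholesterol genes and -0.50 over the 18 fatty acid genes. DHCR7 (-1.41), MVK (-1.17), HSD17B7 (-1.10), SC5D (-0.97) and HMGCS1 (-0.87) were furthest below among the cholesterol genes, and SREBF1 (-2.86) and INSIG1 (-2.27) among the others. ACAT1 (-0.06), ELOVL7 (0.26) and CPT1A (0.06) did not share it. The same array had the lowest ACTB 3' to 5' ratio (3.82), and its median deviation from the line mean was -0.03 over all genes above the dim threshold, beside -0.37 over the cholesterol genes. These are values of 1 array, chosen after its values were seen, and the part of RNA quality in them was not tested. Without it the median of the cholesterol genes was 0.23 for WT-actin against parental and -0.15 for NLS-actin against WT-actin, where it was 0.01 and 0.01 with all arrays. The 3 calls between NLS-actin and WT-actin cells held without it.

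**Figure D5:**
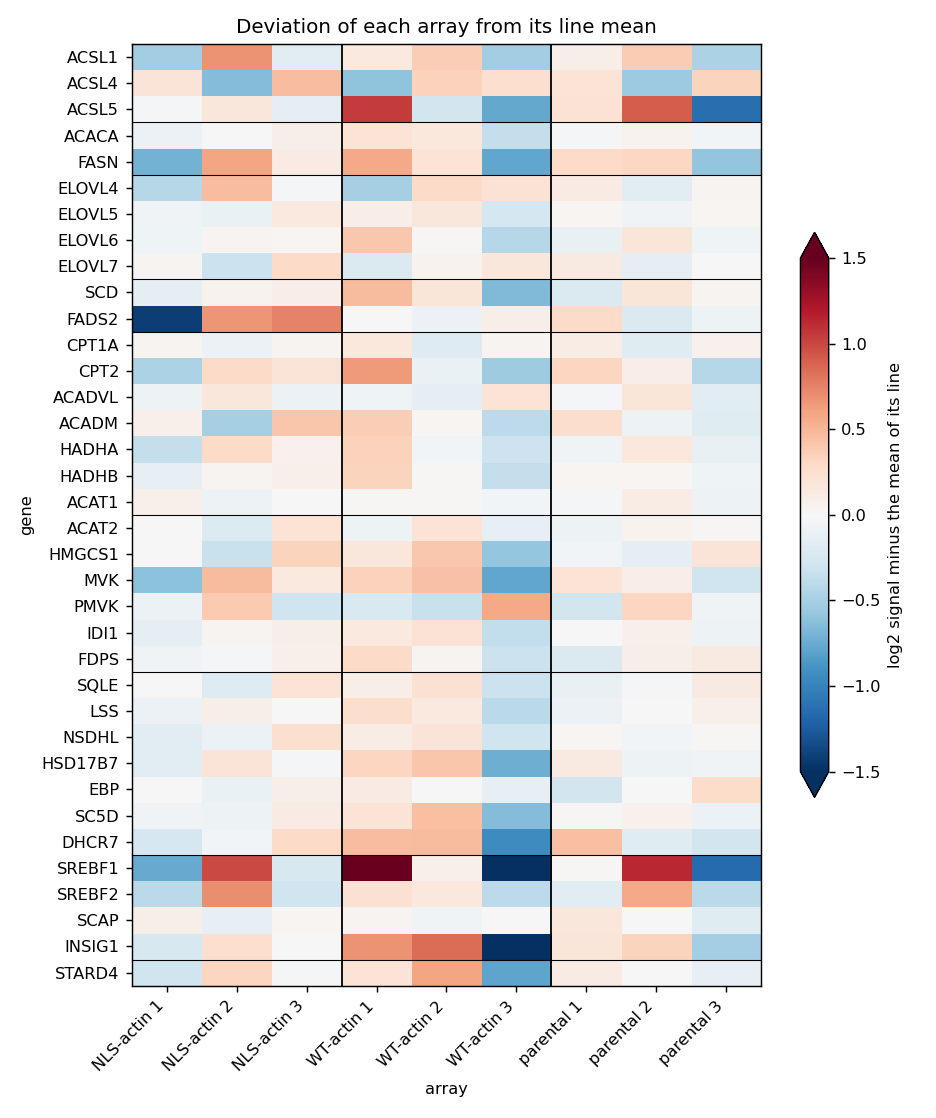
Log2 signal of each of the 36 members (rows) on each of the 9 arrays (columns) minus the mean of its line, with red above and blue below the line mean and colours capped at 1.5. The column of WT-actin replicate 3 is blue for 12 of 13 cholesterol synthesis genes, and SREBF1 is highest on NLS-actin 2, WT-actin 1 and parental 2.

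The promoters of the sterol genes are shown because most of the measured ones read low together on 1 WT-actin array. The genes counted here are not the same set. CYP51A1 was not measured, PMVK read highest of its line on that array, and SQLE and ACAT2 have no promoter entry. Among the 12 cholesterol synthesis genes with a promoter entry, 10 held a CCAAT box in the 250 bases before a start, against 32% of the 35116 promoters and 37% of the 27305 genes with an entry. The GC box was in 11 of 12, against 42.6% of promoters and 46.2% of genes, but also in 17 of 20 fatty acid members with an entry. The E-box was in 1 of 12 (SC5D), against 6.34% of promoters. The sterol element in the spelling used here was in 0 of 12, against 0.883% of promoters, and among all members it was found in ACSL1 and SREBF2. No match says only that these letters are not in the window. HMGCS1 lies at chr5:43313413-43313662 on the minus strand, FDPS at chr1:155308616-155308865 on the plus strand and SREBF2 at chr22:41832855-41833104 on the plus strand.
HMGCS1: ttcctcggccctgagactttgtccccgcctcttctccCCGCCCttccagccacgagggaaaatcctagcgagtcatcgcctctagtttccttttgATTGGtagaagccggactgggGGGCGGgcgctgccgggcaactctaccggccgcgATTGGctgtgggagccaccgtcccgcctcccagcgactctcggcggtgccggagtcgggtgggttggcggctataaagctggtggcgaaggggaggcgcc
FDPS: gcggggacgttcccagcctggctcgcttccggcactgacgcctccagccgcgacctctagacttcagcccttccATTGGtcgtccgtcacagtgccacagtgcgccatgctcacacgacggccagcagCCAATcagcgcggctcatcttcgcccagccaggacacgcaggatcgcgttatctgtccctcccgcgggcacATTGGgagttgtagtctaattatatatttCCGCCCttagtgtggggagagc
SREBF2: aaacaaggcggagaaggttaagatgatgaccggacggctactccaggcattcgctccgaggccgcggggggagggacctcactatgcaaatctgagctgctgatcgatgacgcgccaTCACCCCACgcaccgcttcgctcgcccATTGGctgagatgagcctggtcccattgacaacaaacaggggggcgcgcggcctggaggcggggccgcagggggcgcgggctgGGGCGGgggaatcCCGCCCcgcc
HMGCS1 held 2 CCAAT boxes and 2 GC boxes, the window of its other start held 2 GC boxes, FDPS held 3 CCAAT boxes and 1 GC box, and SREBF2 held the sterol element upstream of 1 CCAAT box and 2 GC boxes.

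The list was then widened to 68 further measured genes of the same pathways, in sterol synthesis and uptake, sterol efflux, fatty acid synthesis, fatty acid oxidation and epidermal barrier lipids. Of these, 0 passed for NLS-actin against parental, 0 for WT-actin against parental and 2 for NLS-actin against WT-actin (limma, adjusted p under 0.05), against 0.131%, 0.167% and 0.728% of all genes. At an unadjusted p under 0.05, 10, 7 and 14 passed (14.7%, 10.3% and 20.6%), against 6.44%, 6.69% and 9.47% of all genes. SCD5, a second stearoyl-CoA desaturase, read 1479, 2011 and 1743 in NLS-actin cells, 3575, 3130.1 and 2699 in WT-actin cells and 2298, 2450.2 and 2071 in parental cells. The log2 fold change of NLS-actin against WT-actin cells was -0.85 (SE 0.16, adjusted p = 0.0372), without overlap. That is the value of its main probe set. When the 4 SCD5 probe sets were averaged, the change shrank to -0.38 and missed the threshold (limma, adjusted p = 0.824). ABCG1, a sterol exporter induced by the oxysterol receptors LXR, read 641, 1003 and 444 in NLS-actin cells, 274, 74.9 and 85.6 in WT-actin cells and 98.7, 242 and 131 in parental cells. All NLS-actin arrays lay above the other 6, by 2.45 against WT-actin cells (SE 0.50, adjusted p = 0.0489) and 2.17 against parental cells (adjusted p = 0.181, and 0.000146 with the replicate block). Without the 3 arrays that stand apart these were 2.74 (adjusted p = 0.00239) and 2.23 (adjusted p = 0.0264). Both calls against WT-actin cells were close to the threshold: each passed in 2 of the 9 fits that left 1 array out, with adjusted p up to 0.178 for SCD5 and 0.229 for ABCG1. Cross-hybridizing probe sets are here those whose names end in _s_at or _x_at, a kind that can bind related transcripts. Whether they do so in these cells was not tested. With them left out, ABCG1 changed by 0.90 against WT-actin cells (limma, adjusted p = 0.844).

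By list, 1 of 15 genes of sterol synthesis and uptake passed the unadjusted threshold for NLS-actin against parental, 1 of 15 for WT-actin against parental and 0 of 15 for NLS-actin against WT-actin. For the 5 efflux genes it was 1, 1 and 2, for the 15 genes of fatty acid synthesis, elongation and desaturation 2, 3 and 4, for the 20 oxidation genes 2, 0 and 3, and for the 13 barrier lipid genes besides ELOVL4 it was 4, 2 and 5. The shares over all genes were 6.44%, 6.69% and 9.47%. STS, the steroid sulfatase that splits cholesterol sulfate in the skin, read 241, 207 and 226 in NLS-actin cells, 391, 351 and 281 in WT-actin cells and 564, 393 and 331 in parental cells. All NLS-actin arrays were lowest (-0.90 against parental, adjusted p = 0.323, and 0.0364 with the replicate block). ECI1, a mitochondrial isomerase for unsaturated fatty acids, read 782, 911 and 757 in NLS-actin cells, 473, 459 and 457 in WT-actin cells and 539, 664 and 386 in parental cells, highest in NLS-actin cells (0.65 and 0.81, adjusted p = 0.487 and 0.148). SMPD1, the acid sphingomyelinase, read 191, 316 and 179 in NLS-actin cells, 388, 468 and 382 in WT-actin cells and 222, 261 and 190.0 in parental cells, highest in WT-actin cells (0.88 against parental, adjusted p = 0.457), a direction that turned when cross-hybridizing probe sets were left out (-0.21). HSD17B12, the ketoreductase of the elongation cycle, read 9198, 9074 and 10815 in NLS-actin cells, 13357, 10525 and 8262 in WT-actin cells and 7291, 8344 and 8082 in parental cells (0.41 in WT-actin against parental, adjusted p = 0.676). With the replicate block, FABP5 and ALOX12B also passed for NLS-actin against parental. FABP5, the epidermal fatty acid binding protein, read 344, 197 and 357 in NLS-actin cells, 150.1, 349.7 and 592 in WT-actin cells and 658, 543 and 668 in parental cells (-1.10, adjusted p = 0.637, and 0.00633 with the block). ALOX12B, a lipoxygenase of the epidermal barrier, read 40.1, 378 and 70.1 in NLS-actin cells, 42.1, 10.1 and 4.61 in WT-actin cells and 20.3, 30.9 and 2.26 in parental cells (3.18, adjusted p = 0.574, and 0.0223 with the block), highest on NLS-actin replicate 2. Without the 3 arrays that stand apart the change was -0.92 for FABP5 (adjusted p = 0.368) and 2.97 for ALOX12B (adjusted p = 0.494). The NLS-actin and parental arrays did not overlap for either gene, and the parental signals of ALOX12B were all below the dim threshold.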

How the data were processed

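Total RNA of 9 samples, 3 per HaCaT line, had been hybridized to Affymetrix U133 Plus 2.0 arrays. The deposited values are MAS5 intensities, which the authors computed per array on a linear scale and scaled to a common trimmed mean. The MAS5 version is not given in the sources used here. Genes were named from the platform annotation: of 54613 probe sets besides 62 controls, 41091 had 1 gene, 1801 several and 11721 none, and only those with 1 gene were used. Where a gene had several, the one whose log2 signals averaged highest stood for it. Log2 intensities were fitted with limma 3.58.1 in R 4.3.3 (1 mean per line, lmFit and eBayes with an intensity trend), and p values were adjusted by Benjamini-Hochberg over 19775 genes. Tables and plots were made with Python 3.11.15, pandas 2.3.3, numpy 2.4.6 and matplotlib 3.10.9. The study's general statistical method ends in Tukey's test, without saying whether arrays were included, and that test was run as an alternative. Script steps were tested on simulated data. There the fit for NLS-actin against parental recovered 26.9% of 2-fold and 46.7% of 4-fold changes at an adjusted p under 0.05. Replicate numbers were used as a block for NLS-actin and parental arrays, because residuals of same-numbered arrays correlated at 0.235, 0.75 and 0.389. The block was thus chosen from these same data. The labels do not say what the number marks. NLS-actin replicate 1 correlated more with parental replicate 3 (0.489) than with parental replicate 1, and NLS-actin replicate 3 with parental replicate 1 at 0.328. Arrays 1 and 3 are therefore not clearly paired by number. With WT-actin arrays the same-number correlations ran between -0.543 and 0.484, so no pairing was used there. Values on every array are given for the 6 members with the smallest p in each comparison, members with a call, the brightest member of each role and 6 sterol and fatty acid genes set by name; from the wider lists, for genes with a call and the 3 with the smallest p per comparison. FABP5, ALOX12B and the probe sets shown singly were chosen after their values were seen. Members and lists were chosen with earlier results of these data known. Promoters came from RefSeq GRCh38.p14, with 37 of 41 members matched. Alternatives were other normalization, offset, filter, probe set, variance, block and test choices and each array left out.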

Additional observations from a re-analysis of the deposited data

Results flagged for a closer look

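For 3 members the difference between the actin lines was itself tested and passed (limma, adjusted p under 0.05). The NLS-actin minus WT-actin log2 difference was -4.06 for ACSL5 (adjusted p = 0.00423), -2.22 for ELOVL7 (adjusted p = 0.000666) and -0.92 for ACAT1 (adjusted p = 0.0052). For ACSL5 and ELOVL7 the values against parental cells had opposite signs, -2.10 and -0.92 in NLS-actin cells and 1.97 and 1.30 in WT-actin cells, and for ACAT1 they were -0.83 in NLS-actin cells and 0.09 in WT-actin cells.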

How the results depend on the processing

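The calls between NLS-actin and WT-actin cells held best. ELOVL7 passed under 21 of 23 alternatives, ACAT1 under 19 of 23 and ACSL5 under 19 of 22, and the count of 3 members held with any 1 array left out (3 to 3). It was 1 without the intensity trend, 1 with Tukey's test and 0 with Student's test after adjustment. For NLS-actin against parental the count of 1 became 0 without the trend, with the replicate block over 9 arrays, with only those lines fitted, with the mean of all probe sets, with Tukey's or Student's test and without the 3 arrays that stand apart. It was 3 with the replicate block within those lines, 2 with the ACTB ratio in the fit, and 0 to 1 with 1 array left out. For WT-actin against parental the count of 1 became 0 with quantile normalization, the offset (8.08), no trend, either replicate block, the mean of all probe sets, Tukey's or Student's test and the probe set brightest by linear signal, and was 0 to 1 with 1 array left out. ACAT1 against parental passed under 9 of 23 alternatives and ELOVL7 in WT-actin against parental under 6 of 23. Under the study's thresholds the count for NLS-actin against parental was 0 with cross-hybridizing probe sets left out, which removes ACSL5, and 1 to 2 with 1 array left out. For WT-actin against parental it was 2 to 3. For NLS-actin against WT-actin it was 1 with those probe sets left out, 4 without the 3 arrays that stand apart and 2 to 3 with 1 array left out. With 1 array left out, the cholesterol synthesis median ran between -0.005 and 0.12 for NLS-actin against parental, -0.14 and 0.23 for WT-actin against parental, and -0.15 and 0.14 for NLS-actin against WT-actin. SMPD1 turned to -0.21 in WT-actin against parental and 1.17 in NLS-actin against WT-actin with cross-hybridizing probe sets left out, and STS to 0.014 in NLS-actin against WT-actin with the mean of all probe sets. The cause was not tested. Within the NLS-actin and WT-actin lines the replicate block gave ACAT1 an adjusted p of 0.186, but the numbers do not pair those arrays. Of 2460 recomputed member fold changes 202 changed sign, 3 of them where the value had passed the adjusted threshold or had an unadjusted p under 0.05. The ACTB ratio and the linear probe set choice were added after seeing the data. The ACTB ratio may include the tagged actin of both actin lines, so fits with it cannot set RNA quality apart from line. Signal over background limits FADS2 and the NLS-actin end of ACSL5.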
